A study of Mus musculus with 6 samples.

Results

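The genes of glycolysis and glucose handling were followed across 6 mouse RNA-seq libraries. They are 35 named genes for glucose uptake, the glycolytic steps, lactate handling and the pyruvate dehydrogenase switch, taken by symbol from the deposited expression table. Of these, 34 had a row among 38924 genes. Pkm2 had none, and the pyruvate kinase gene stands under Pkm. All 34 passed the expression filter, which kept 17116 genes. The study compared induced myogenic progenitor cells (iMPCs), muscle progenitors obtained by reprogramming fibroblasts directly, with satellite cells, the resident stem cells of skeletal muscle. The groups were quiescent satellite cells (QSC, n = 2, mouse 1 and mouse 3), 1 library of activated satellite cells (ASC), 1 each of the Pax7-nGFP+ and Pax7-nGFP- cells sorted from iMPCs, here Pax7-positive and Pax7-negative iMPCs, and 1 of mouse embryonic fibroblasts (MEFs). Per the labels' shared growth protocol, expanded iMPCs were kept in an FGF medium with serum and 5 µM forskolin, 5 µM RepSox and 3 µM of a GSK3 inhibitor, without doxycycline. The medium of the ASC and MEF libraries, the age and strain of the animals and the fibroblasts from which the sequenced iMPCs came were not stated in the labels. The ASC title, ASCmyo-Pax7-plus-p1, also marks those cells as Pax7 positive. Whether both iMPC fractions came from the same culture is not stated, and nothing in the labels gives the number of cultures, animals or clones behind any single-library group.

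Glycolysis splits glucose into pyruvate through a chain of cytosolic enzymes, most of which exist as paralogs with tissue-typical expression. Pyruvate is either reduced to lactate by lactate dehydrogenase and exported by monocarboxylate transporters, or enters mitochondria, where pyruvate dehydrogenase feeds it to the citric acid cycle unless pyruvate dehydrogenase kinases switch that enzyme off. Mature muscle is known for its own set of paralogs, among them Pfkm, Pgam2, Eno3 and the insulin-responsive glucose transporter Slc2a4. Growing cells and cells short of oxygen are known to raise Slc2a1, Hk2, Ldha and Pdk1.

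Values are read counts per gene or CPM (counts scaled to a library size of 1e+06, with TMM, edgeR's trimmed mean of M values, as the scaling factor). Library totals lay between 20859611 and 29279686 counts. The TMM factors of the QSC libraries were 0.717 and 0.763 and those of the other 4 libraries 1.11 to 1.21. The QSC libraries stood apart in composition: 11 genes of dissociation stress summed to 66178 and 78763 CPM in QSC and to 799 to 1258 CPM elsewhere. The mice also differed in the sex-linked transcripts Xist and Ddx3y and in 7 erythroid genes (1300.01 and 20.1 CPM), so the spread between them includes more than quiescence. Of the myogenic factors, Myod1 was at 1836 and 630 CPM and Myog at 189 and 4.07 CPM in mice 1 and 3. In ASC and the Pax7-positive and Pax7-negative fractions Myod1 was at 1029, 719 and 404 CPM and Myog at 2055, 892 and 1358 CPM. Against the labels, Pax7 was at 34.5 and 159.7 CPM in QSC, 19.8 in ASC, 37.8 and 6.25 in the Pax7-positive and Pax7-negative fractions and 0 in MEFs. Marker genes of fibroblasts, 8 in all, summed to 18491 CPM in MEFs. The library labelled activated satellite cells carried 20940 CPM over 10 genes of differentiated muscle, against 199 and 26.1 in QSC, 1367 and 4620 in the Pax7-positive and Pax7-negative fractions and 47.5 in MEFs. With 1 library, differentiated cells in a culture and a moderate level in each cell cannot be told apart. In bulk RNA, fewer cells of a type and less RNA per cell cannot be told apart either.

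Compared with quiescent cells, the other 4 libraries had a larger part of their counts on the members, and the leading paralog differed between libraries for some steps and was shared for others. The members took 0.653% and 0.515% of all counts in QSC, 1.66% in ASC, 1.17% and 1.91% in the Pax7-positive and Pax7-negative fractions and 1.1% in MEFs. These shares carry no TMM factor, and on the TMM scale the libraries lay closer: 9 central enzymes (Gpi1, Aldoa, Tpi1, Gapdh, Pgk1, Pgam1, Eno1, Pkm, Ldha) summed to 7041 and 4984 CPM in QSC, 11675 in ASC, 8081 and 12875 in the Pax7-positive and Pax7-negative fractions and 8360 in MEFs. Both QSC libraries lay below all 4 others for 16 members, against 27.8% of all genes tested, and above all 4 for 3 members, Hk2, Pfkp and Slc16a1, against 25.6% of all genes. The other 15 members overlapped. The dissociation stress genes were high in the same QSC libraries as Hk2, Pfkp and Slc16a1, and their part in these levels was not tested. Each group was then tested against QSC with edgeR's quasi-likelihood F test, Benjamini-Hochberg adjusted over all 17116 genes at a threshold of 0.05. Only the QSC pair informs the spread, so each lone library is assumed to vary as these mice did. Nothing says how QSC or any other cells were pooled, and p-values measure the spread between these samples only.

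In ASC, 7 members rose and 5 fell, where 11.8% of all genes rose and 8.24% fell. Pax7-positive iMPCs had 5 members higher and 4 lower (11.3% and 9.31% of all genes). In Pax7-negative iMPCs 11 members were higher and 1 was lower (12.1% and 6.57% of all genes). MEFs had 2 members higher and 6 lower (11.3% and 8.03% of all genes). At an unadjusted p under 0.05 these counts were 11 and 5, 9 and 5, 14 and 3, and 5 and 6. The median log2 difference of the 34 members was 0.57 in ASC, 0.47 in Pax7-positive iMPCs, 1.05 in Pax7-negative iMPCs and 0.66 in MEFs, beside medians over all genes of 0, -0.03, 0.15 and 0. In the same order the members' medians were 0.40, 0.066, 0.96 and 0.38 against mouse 1 alone and 0.95, 0.60, 1.51 and 0.76 against mouse 3 alone. All 4 comparisons share the same QSC libraries, so similar lists in them are not separate evidence. In all, 20 members passed the test in at least 1 comparison and 14 in none. The share of all genes called in at least 1 comparison is not given here, so this count is not set apart from the general rate. Each of the 41 calls had the same sign and at least a 2-fold size against mouse 1 alone and mouse 3 alone. The calls were made with these same QSC libraries, so this agreement is no separate support for them. The calls depend on the scaling: by library size alone, the median of all genes moved to 0.59, 0.60, 0.86 and 0.61 in the same order, and the members higher and lower became 10 and 2, 7 and 1, 13 and 1, and 4 and 0. Directions below are relative to the TMM scale, and each member's fall that this scaling took below the threshold is named.

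**Figure D1:**
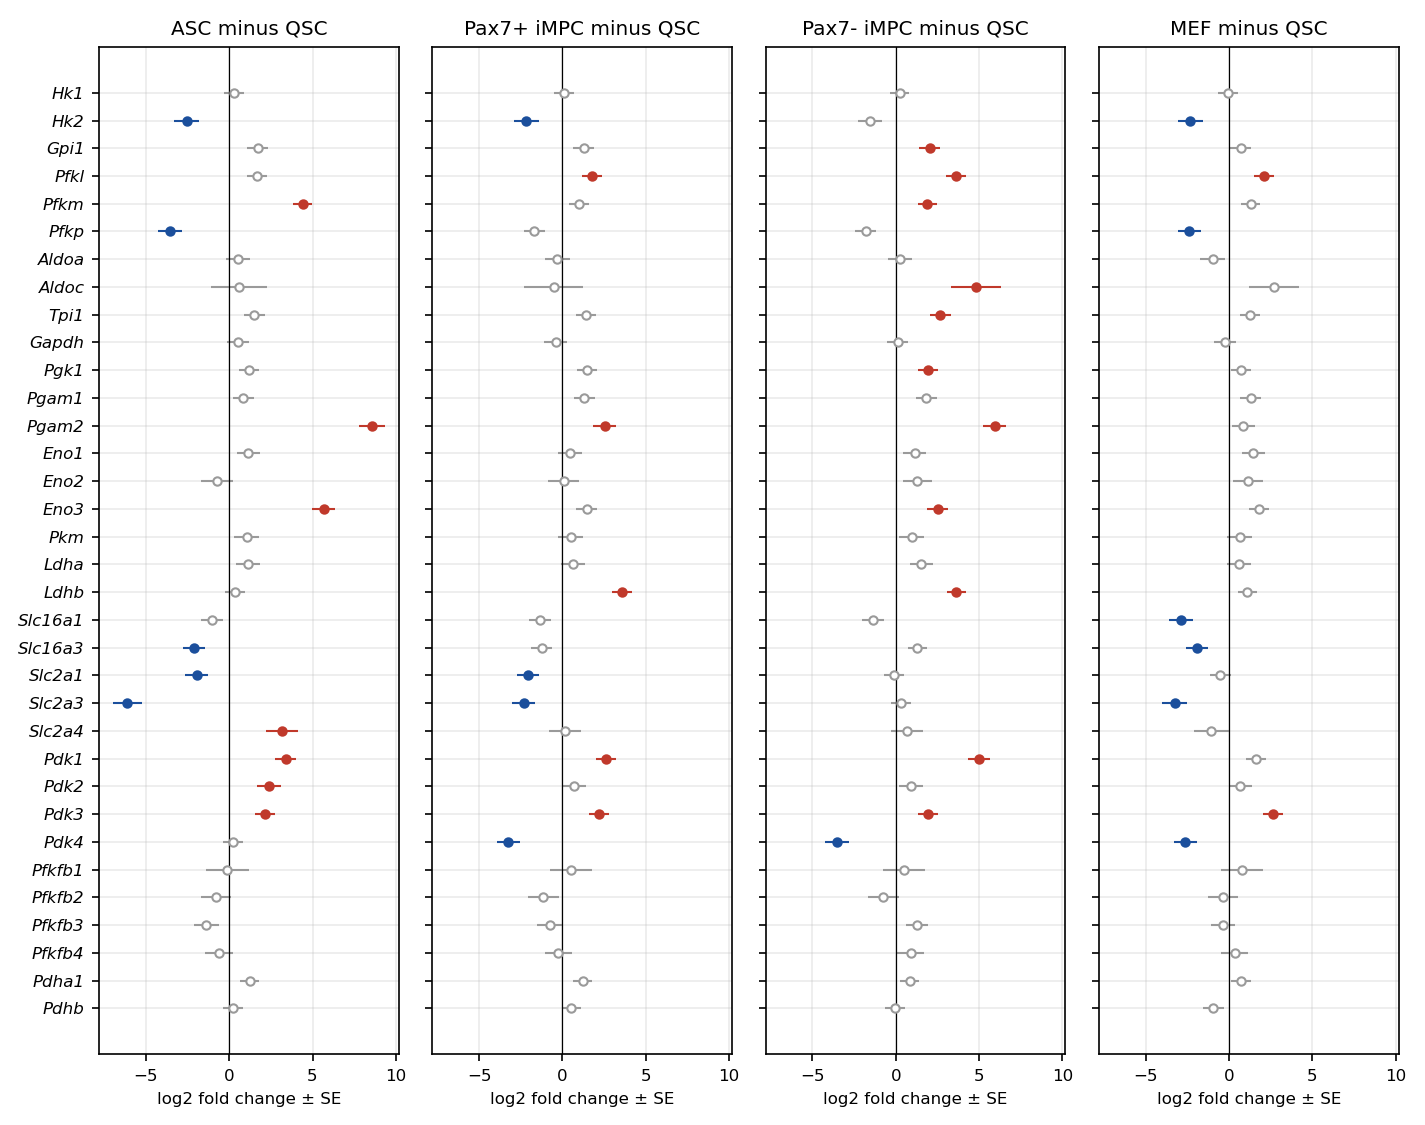
Log2 fold change of each of the 34 members against QSC, with its standard error, in 4 panels (ASC, Pax7-positive iMPCs, Pax7-negative iMPCs, MEFs). Filled red and blue points passed the test as higher and lower (7 and 5, 5 and 4, 11 and 1, and 2 and 6 genes), open points did not; Pgam2 in ASC lies farthest right at 8.59.

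Among promoters of the members, windows of the 250 bases before each RefSeq start site (build GRCm38.p6) were available for 32 of the 34 genes. They are shown because the members include textbook targets of the hypoxia-inducible factor and of the myogenic factors. A response element of the former can have the core ACGTG, and the latter bind E-boxes such as CAGCTG. Both strands were searched, and the palindromes CACGTG and CAGCTG read alike on both. CACGTG holds ACGTG and is itself an E-box, so a match of ACGTG does not single out a hypoxia response element. The core ACGTG stood in a window of 15 of 32 member genes (46.9%) and of 18.5% of 27025 genes. CAGCTG stood in 6 of 32 (18.8%) and in 14.7% of all genes. A gene can have several windows, and the 32 member genes had 51 of the 32851. Per window, ACGTG stood in 37.3% of the members' and 16.6% of all, and CAGCTG in 11.8% of the members' and 13% of all, so the order for CAGCTG turns with the way of counting. The windows were not matched for base composition, and a match of these letters is a description, neither a bound site nor a cause. Capitals mark the match, and the 4 windows shown are those of Pgk1, Ldha and Slc16a3, with ACGTG at 2, 3 and 2 places, and of Pgam2, with CAGCTG at 1 place. Read 5′ to 3′ along the gene, they lie at chrX:106186850-106187099 (plus strand), chr7:46845554-46845803 (plus), chr11:120948817-120949066 (plus) and chr11:5803797-5804046 (minus).
Pgk1: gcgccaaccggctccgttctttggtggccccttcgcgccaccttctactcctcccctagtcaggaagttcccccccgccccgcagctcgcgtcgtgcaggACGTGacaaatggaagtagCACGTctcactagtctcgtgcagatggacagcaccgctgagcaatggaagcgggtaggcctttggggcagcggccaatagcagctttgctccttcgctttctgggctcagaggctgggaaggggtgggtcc
Ldha: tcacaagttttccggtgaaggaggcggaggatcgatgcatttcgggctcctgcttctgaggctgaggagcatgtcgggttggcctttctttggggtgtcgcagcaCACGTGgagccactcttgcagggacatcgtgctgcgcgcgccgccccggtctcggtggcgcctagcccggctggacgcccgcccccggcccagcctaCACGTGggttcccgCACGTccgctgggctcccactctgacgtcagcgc
Slc16a3: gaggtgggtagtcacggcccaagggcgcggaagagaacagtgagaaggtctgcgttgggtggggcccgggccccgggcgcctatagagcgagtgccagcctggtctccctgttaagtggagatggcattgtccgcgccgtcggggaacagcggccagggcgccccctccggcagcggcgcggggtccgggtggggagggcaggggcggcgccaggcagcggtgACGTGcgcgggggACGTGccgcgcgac
Pgam2: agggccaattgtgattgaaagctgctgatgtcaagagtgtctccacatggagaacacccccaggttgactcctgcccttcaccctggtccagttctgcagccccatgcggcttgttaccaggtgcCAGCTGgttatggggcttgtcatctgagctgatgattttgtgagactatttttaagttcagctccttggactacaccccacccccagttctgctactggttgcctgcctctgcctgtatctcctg
Eno3, the muscle enolase, had neither motif in its window, and Pdk1 had 1 CAGCTG in the upstream of its 2 windows and no ACGTG. Slc2a3 and Slc2a4 had no window in the table. Matches of ACGTG also stood in windows of Aldoa, Hk2, Pdhb, Pdk2, Pdk3, Pfkfb2, Pfkfb3, Pfkm, Pgam1, Pkm, Slc16a1 and Slc2a1.

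Slc2a1 held the largest per-length share of the 3 glucose transporter transcripts in every library, and the smaller shares of Slc2a3 and Slc2a4 differed between libraries. Slc2a1 (GLUT1), the widespread basal glucose transporter, had 4755 and 3202 reads in QSC of mice 1 and 3, 1114 in ASC, 1372 in Pax7-positive iMPCs, 5072 in Pax7-negative iMPCs and 3465 in MEFs. On the CPM scale QSC (227 and 145 CPM) and Pax7-negative iMPCs (171) were high, MEFs lay just below at 129, and ASC and Pax7-positive iMPCs were low at 48.0 and 44.1. Slc2a1 fell by 1.95 ± 0.67 (log2, ± SE) in ASC (adjusted p = 0.0477 from edgeR's quasi-likelihood test with Benjamini-Hochberg adjustment) and by 2.07 ± 0.67 in Pax7-positive iMPCs (adjusted p = 0.0373). Slc2a3 (GLUT3), a transporter of high glucose affinity, had 2424 and 1545 reads in QSC of mice 1 and 3, 31 in ASC, 582 in Pax7-positive iMPCs, 3414 in Pax7-negative iMPCs and 257 in MEFs. Its QSC level of 116 and 69.9 CPM stood far above ASC at 1.34 CPM and overlapped with Pax7-negative iMPCs at 115. It fell by 6.11 ± 0.87 in ASC, 2.31 ± 0.69 in Pax7-positive iMPCs and 3.27 ± 0.73 in MEFs (edgeR, adjusted p = 0.000103, 0.025 and 0.00477). Scaled by library size alone, 4 of these falls missed the threshold: Slc2a1 in ASC and Pax7-positive iMPCs (edgeR adjusted p = 0.153 and 0.142) and Slc2a3 in Pax7-positive iMPCs and MEFs (0.121 and 0.0517). Slc2a4 (GLUT4), the insulin-responsive transporter of muscle and fat, had 53 and 37 reads in QSC of mice 1 and 3, 443 in ASC, 73 in Pax7-positive iMPCs, 101 in Pax7-negative iMPCs and 27 in MEFs. ASC was the high library at 19.1 CPM, all others lying between 1.01 and 3.41. The rise in ASC was 3.18 ± 0.94 (edgeR quasi-likelihood, adjusted p = 0.024), and 0.0507 with a filter of 5 CPM. Per length, Slc2a1 held 70.2% of the summed RPKM of the 3 transporters in ASC, Slc2a4 held 28.5% (95% counting interval 26.3 to 30.9) and Slc2a3 1.30% (0.885 to 1.84). In QSC the share of Slc2a3 was 25.2% and 24.1% and that of Slc2a4 0.844% and 0.887%. Blood and vessel cells also use Slc2a1 and Slc2a3: 9 endothelial markers summed to 208 and 46.5 CPM and 9 immune markers to 216 and 79.2 CPM in QSC, against 6.12 and 4.74 in ASC. In Pax7-positive iMPCs, Pax7-negative iMPCs and MEFs the endothelial sums were 12.6, 50.4 and 68.9 CPM. The immune sums were 1.90, 6.11 and 12.2 CPM in the same order. The part of blood and vessel cells in the result was not tested.

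Hexokinase traps glucose in the cell by phosphorylating it. Hk1, the housekeeping form, had 2986 and 2976 reads in QSC of mice 1 and 3, 3910 in ASC, 4617 in Pax7-positive iMPCs, 4802 in Pax7-negative iMPCs and 3573 in MEFs. Its CPM stayed within 134 to 168 across all libraries, and no comparison passed the test. Hk2, the inducible form of muscle and growing cells, had 1315 and 3742 reads in QSC of mice 1 and 3, 463 in ASC, 800 in Pax7-positive iMPCs, 1160 in Pax7-negative iMPCs and 618 in MEFs. The QSC mice (62.7 and 169 CPM) differed from each other by 2.70-fold, yet both lay above all 4 other libraries, of which Pax7-negative iMPCs came closest at 39.2 CPM. Hk2 fell by 2.54 ± 0.76 in ASC, 2.17 ± 0.74 in Pax7-positive iMPCs and 2.33 ± 0.75 in MEFs (edgeR quasi-likelihood, adjusted p = 0.0246, 0.0458 and 0.0363). None of these falls passed with library size scaling (edgeR adjusted p = 0.151, 0.224 and 0.191), and the call in Pax7-positive iMPCs also missed with the size factors of DESeq2 (0.0502). Per length Hk1 led in every library, and Hk2 held 22.8% and 45.8% of the pair in QSC and 7.37% in ASC; by reads, Hk2 led in mouse 3. Gpi1, which turns glucose 6-phosphate into fructose 6-phosphate, had 4602 and 3300 reads in QSC of mice 1 and 3, 13904 in ASC, 13795 in Pax7-positive iMPCs, 22325 in Pax7-negative iMPCs and 7987 in MEFs. Both QSC libraries were lowest, at 219 and 149 CPM, and Pax7-negative iMPCs highest at 754. It rose by 2.03 ± 0.61 there (edgeR quasi-likelihood, adjusted p = 0.0272). In ASC its difference of 1.70 ± 0.61 did not pass (adjusted p = 0.0578 by edgeR, 0.0339 by DESeq2).

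Phosphofructokinase, the committing step of glycolysis, was led by a different paralog in QSC, in ASC and in the remaining libraries. Pfkp, the platelet form, had 5949 and 6578 reads in QSC of mice 1 and 3, 582 in ASC, 2819 in Pax7-positive iMPCs, 2466 in Pax7-negative iMPCs and 1499 in MEFs. The pair of QSC libraries was high and close together at 284 and 297 CPM, with no other library above 90.7. It fell by 3.53 ± 0.72 in ASC and 2.37 ± 0.67 in MEFs (edgeR quasi-likelihood, adjusted p = 0.00217 and 0.0187; in MEFs 0.0848 with library size scaling). In the iMPC fractions the differences of -1.68 ± 0.64 and -1.80 ± 0.64 did not pass by edgeR (adjusted p = 0.0722 and 0.0603) but did by DESeq2 (0.017 and 0.00843). Pfkl, the liver form, had 956 and 567 reads in QSC of mice 1 and 3, 2593 in ASC, 3823 in Pax7-positive iMPCs, 13079 in Pax7-negative iMPCs and 4062 in MEFs. QSC were lowest and Pax7-negative iMPCs, at 442 CPM, far above all others. Pfkl rose by 3.63 ± 0.60 in Pax7-negative iMPCs, 2.09 ± 0.59 in MEFs and 1.79 ± 0.59 in Pax7-positive iMPCs (edgeR quasi-likelihood, adjusted p = 0.000549, 0.0192 and 0.0405). The last of these missed with the size factors of DESeq2 (0.0521) and with a filter of 5 CPM (0.0585). Pfkm, the muscle form, had 254 and 229 reads in QSC of mice 1 and 3, 5508 in ASC, 696 in Pax7-positive iMPCs, 1229 in Pax7-negative iMPCs and 741 in MEFs. ASC stood alone at 237 CPM, against 12.1 and 10.4 CPM in QSC and at most 41.5 in the others. The rise was 4.40 ± 0.60 in ASC and 1.89 ± 0.57 in Pax7-negative iMPCs (edgeR quasi-likelihood, adjusted p = 6.49e-05 and 0.0294; the latter 0.057 when only these libraries and QSC were fitted). Per length, Pfkp held 84.4% and 90.0% of the 3 paralogs in QSC. Pfkm led in ASC with 65.9% (95% counting interval 64.9 to 66.8). Pfkl led in Pax7-positive iMPCs with 49.0% (47.9 to 50.2), in Pax7-negative iMPCs with 75.8% (75.1 to 76.4) and in MEFs with 61.6% (60.3 to 62.8). Pfkp held 40.8% in Pax7-positive iMPCs, 25.7% in MEFs, 16.1% in Pax7-negative iMPCs and 6.90% in ASC.

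**Figure D2:**
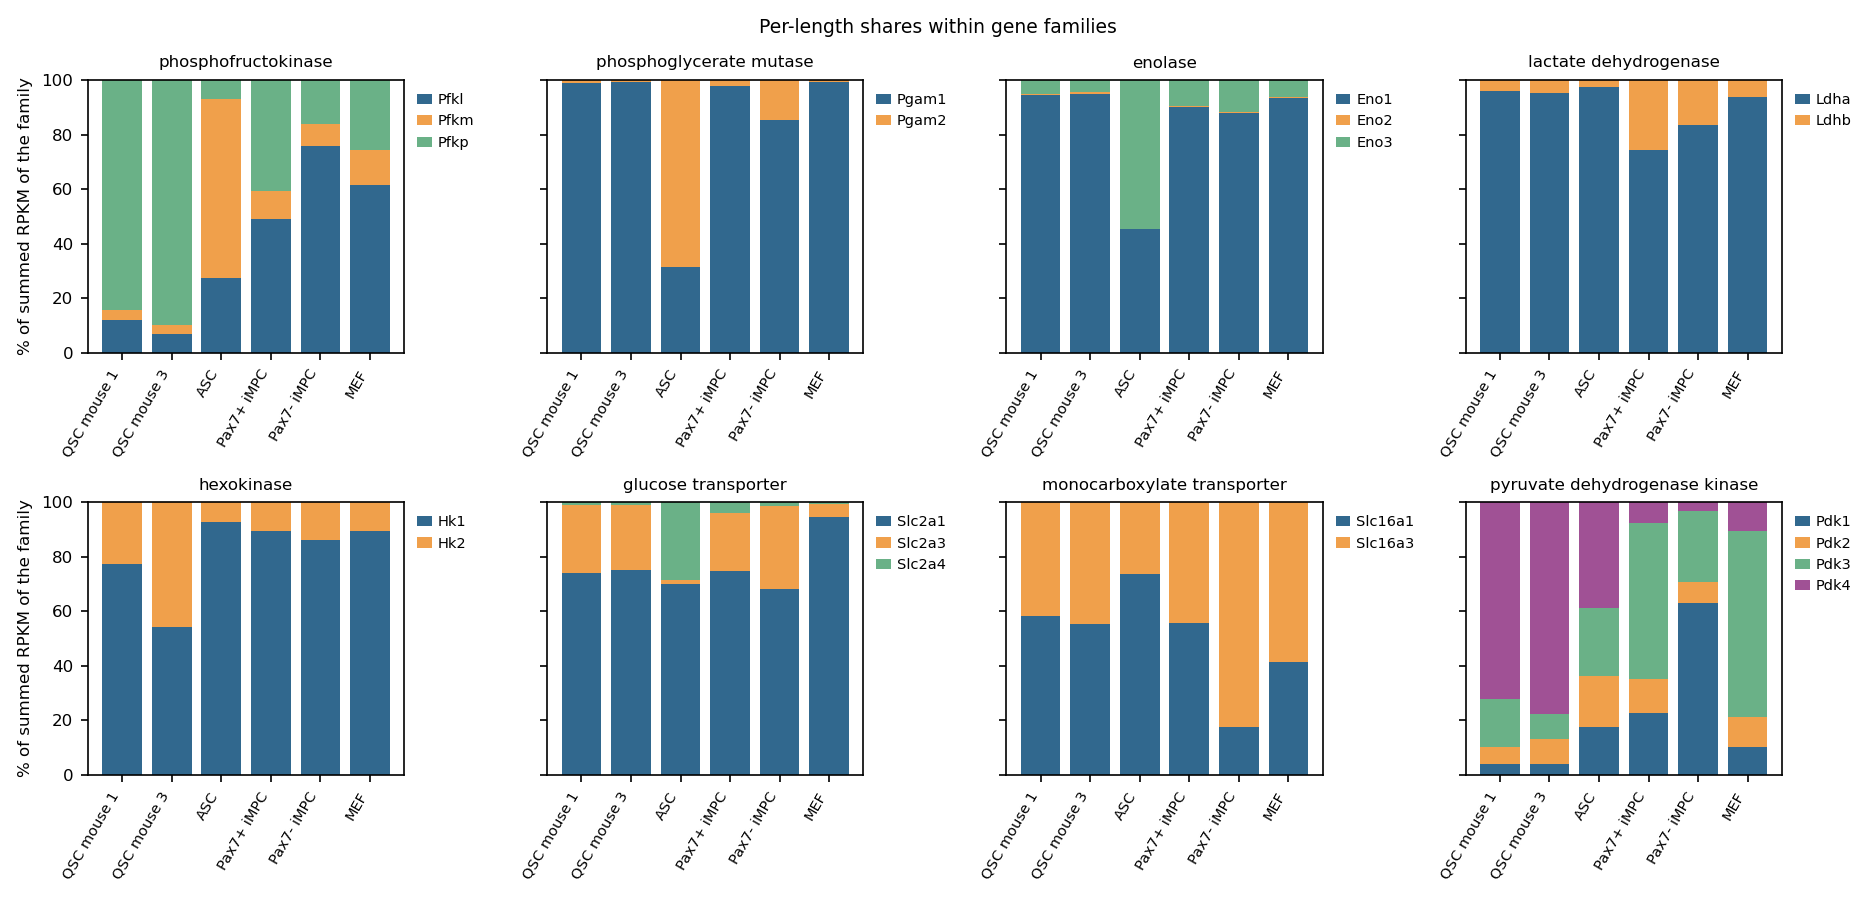
Share of each paralog in the summed RPKM of its family (stacked bars, 0 to 100%) in each of the 6 libraries, for 8 families. Pfkp fills 84.4% and 90.0% of the phosphofructokinase bars in QSC, Pfkm 65.9% in ASC and Pfkl 75.8% in Pax7-negative iMPCs, and Pgam2 and Eno3 hold more than Pgam1 and Eno1 in the ASC bars (68.6% and 54.5%).

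The PFKFB enzymes set the level of fructose 2,6-bisphosphate, the activator of phosphofructokinase. None of the 4 passed the test in any comparison. Pfkfb3, the form with the strongest kinase activity, had 430 and 286 reads in QSC of mice 1 and 3, 151 in ASC, 305 in Pax7-positive iMPCs, 1198 in Pax7-negative iMPCs and 346 in MEFs. It was highest in Pax7-negative iMPCs at 40.5 CPM and lay between 6.50 and 20.5 in the others, so QSC overlapped with them. Pfkfb4 had between 121 and 440 reads, Pfkfb2 between 142 and 336, both ends in QSC, and Pfkfb1 between 14 and 70. Per length Pfkfb3 held 48.7% and 35.0% of the family in QSC and 57.6% in Pax7-negative iMPCs. In ASC Pfkfb4 led with 30.1% (95% counting interval 25.7 to 34.7), and the share of Pfkfb3 was 29.7% (25.7 to 34.0), intervals that overlap.

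The middle steps split the sugar and draw the first energy from it. Aldoa, the aldolase of muscle and most tissues, had 36756 and 26757 reads in QSC of mice 1 and 3, 49525 in ASC, 37429 in Pax7-positive iMPCs, 53195 in Pax7-negative iMPCs and 20257 in MEFs. MEFs were lowest at 757 CPM and ASC highest at 2134, with QSC (1752 and 1209.9 CPM) inside that range and no comparison past the threshold. Aldoc, the brain-type aldolase, had 4 and 2 reads in QSC of mice 1 and 3, 5 in ASC, 3 in Pax7-positive iMPCs, 121 in Pax7-negative iMPCs and 25 in MEFs. Its 121 reads in Pax7-negative iMPCs stood 29.3-fold above the 6 reads of both QSC libraries together (95% counting interval 13.1 to 81.5; edgeR quasi-likelihood, adjusted p = 0.0324; 0.12 by DESeq2). Even there Aldoa held at least 99.8% of the pair per length, as in all 6 libraries. Tpi1, which interconverts the triose phosphates, had 3948 and 3963 reads in QSC of mice 1 and 3, 12220 in ASC, 15237 in Pax7-positive iMPCs, 34781 in Pax7-negative iMPCs and 11797 in MEFs. QSC were lowest and close at 188 and 179 CPM, Pax7-negative iMPCs reached 1175, and the other 3 libraries lay at 441 to 526. Tpi1 rose by 2.68 ± 0.61 in Pax7-negative iMPCs (edgeR quasi-likelihood, adjusted p = 0.00585). Gapdh, the dehydrogenase often used as a reference gene, had 12908 and 14938 reads in QSC of mice 1 and 3, 21650 in ASC, 15054 in Pax7-positive iMPCs, 20641 in Pax7-negative iMPCs and 14741 in MEFs. Its CPM ranged only from 484 to 933, with QSC at 615 and 675 CPM in the middle, and passed no test. Pgk1, which makes the first ATP, had 3908 and 2428 reads in QSC of mice 1 and 3, 7834 in ASC, 12943 in Pax7-positive iMPCs, 16754 in Pax7-negative iMPCs and 6542 in MEFs. QSC lay lowest at 186 and 109.8 CPM and Pax7-negative iMPCs highest at 566. The rise there was 1.93 ± 0.60 (edgeR quasi-likelihood, adjusted p = 0.0331; 0.0504 with the size factors of DESeq2).

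**Figure D3:**
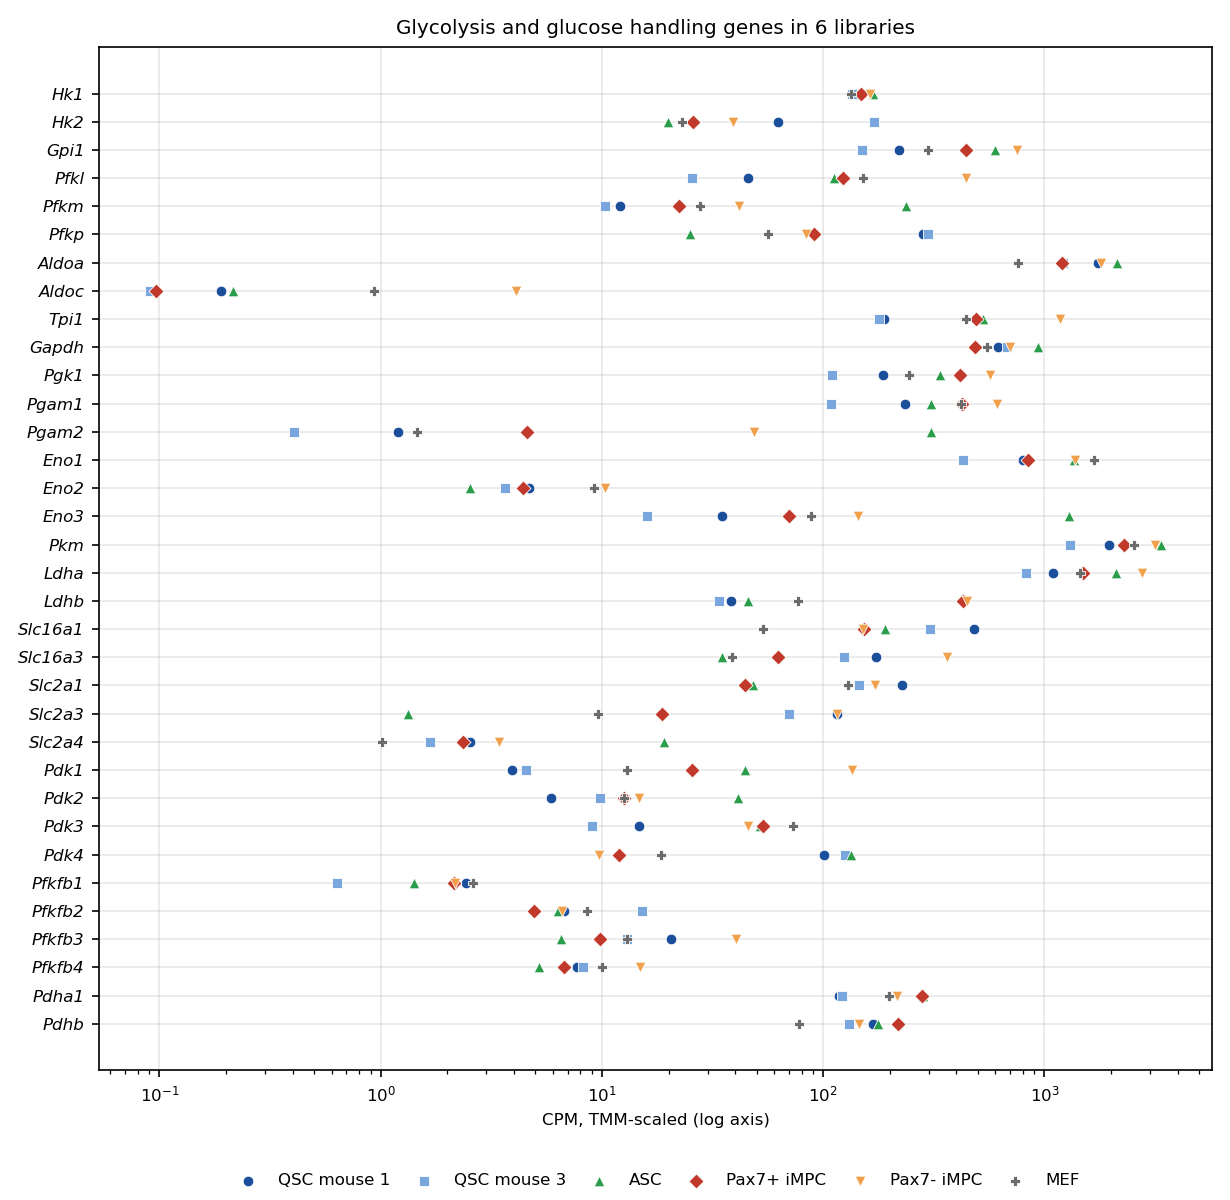
TMM-scaled CPM of the 34 members (rows) on a log axis, 1 symbol per library (QSC mouse 1 and mouse 3, ASC, both iMPC fractions, MEFs). The QSC symbols lie left of all others for 16 genes, such as Tpi1 (188 and 179 CPM), and right of them for Hk2, Pfkp and Slc16a1; points of different genes are not scaled by length.

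Phosphoglycerate mutase and enolase showed the muscle paralogs in the library labelled ASC. Pgam2, the muscle mutase, had 25 and 9 reads in QSC of mice 1 and 3, 7151 in ASC, 143 in Pax7-positive iMPCs, 1447 in Pax7-negative iMPCs and 39 in MEFs. ASC was at 308 CPM, Pax7-negative iMPCs at 48.9 and Pax7-positive iMPCs at 4.60, while QSC and MEFs lay between 0.407 and 1.46. It rose by 8.59 ± 0.77 in ASC, 5.93 ± 0.71 in Pax7-negative and 2.52 ± 0.67 in Pax7-positive iMPCs (edgeR quasi-likelihood, adjusted p = 1.59e-06, 2.88e-05 and 0.0133), the last not when only those libraries and QSC were fitted (0.111). Pgam1, the widespread mutase, had 4910 and 2402 reads in QSC of mice 1 and 3, 7120 in ASC, 13132 in Pax7-positive iMPCs, 18089 in Pax7-negative iMPCs and 11272 in MEFs. Its CPM was lowest in QSC (234 and 109 CPM) and reached 611 in Pax7-negative iMPCs, where 1.83 ± 0.63 just missed the threshold (edgeR adjusted p = 0.051; 0.0402 by DESeq2). Pgam1 is uncertain as a single gene, because its row and that of the copy Pgam1-ps2, with 944 to 7892 reads, moved alike and may share reads. Eno3, the muscle enolase, had 728 and 352 reads in QSC of mice 1 and 3, 29813 in ASC, 2166 in Pax7-positive iMPCs, 4269 in Pax7-negative iMPCs and 2354 in MEFs. The ASC library stood far above all others at 1284 CPM, with QSC lowest at 34.7 and 15.9 CPM. Eno3 rose by 5.66 ± 0.68 in ASC and 2.51 ± 0.62 in Pax7-negative iMPCs (edgeR quasi-likelihood, adjusted p = 2.03e-05 and 0.00981). In MEFs, which are not muscle, its difference was 1.80 ± 0.62 (adjusted p = 0.0515 by edgeR, 0.0381 by DESeq2). Eno1, the widespread enolase, had 16833 and 9447 reads in QSC of mice 1 and 3, 31515 in ASC, 26213 in Pax7-positive iMPCs, 40522 in Pax7-negative iMPCs and 44657 in MEFs. MEFs were highest at 1669 CPM, mouse 1 of QSC (803) nearly reached Pax7-positive iMPCs (843), and no comparison passed. Eno2, the neuronal enolase, stayed between 59 and 305 reads. Per length Pgam2 made up 68.6% of the mutases in ASC (95% counting interval 67.9 to 69.3), 14.8% in Pax7-negative iMPCs (14.2 to 15.5) and at most 2.32% in each other library. These shares leave out Pgam1-ps2 and would be smaller with it. Pgam1-ps2 was at 84.1 RPKM in ASC and 214 in Pax7-negative iMPCs, beside 186 and 404 for Pgam1. Eno3 made up 54.5% of the enolases in ASC (54.1 to 54.9) and 4.48% to 11.7% elsewhere. By reads, which are not per length, Eno1 held 51.3% and Eno3 48.6% in ASC.

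The genes with muscle paralogs followed the markers of differentiated muscle in part. Ordered by the summed CPM of 10 such markers, the libraries ran from mouse 3 of QSC (26.1) over MEFs (47.5), mouse 1 of QSC (199), Pax7-positive iMPCs (1367) and Pax7-negative iMPCs (4620) to ASC (20940), and no marker was at 0 in any library. Pgam2 kept that order except that MEFs (1.46 CPM) lay above mouse 1 of QSC (1.19). Eno3 and Pfkm were higher in MEFs (88.0 and 27.7 CPM) than in Pax7-positive iMPCs (69.7 and 22.4), whose marker sum was the larger. Slc2a4 was lower in Pax7-positive iMPCs (2.35 CPM) than in mouse 1 of QSC (2.53). It was also lower in MEFs (1.01) than in mouse 3 of QSC (1.67), all on 27 to 73 reads. All 10 markers rose in ASC, 6 in Pax7-positive and 9 in Pax7-negative iMPCs, and 6 fell in MEFs. What the differentiated cells of each culture added to these members was not tested.

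**Figure D4:**
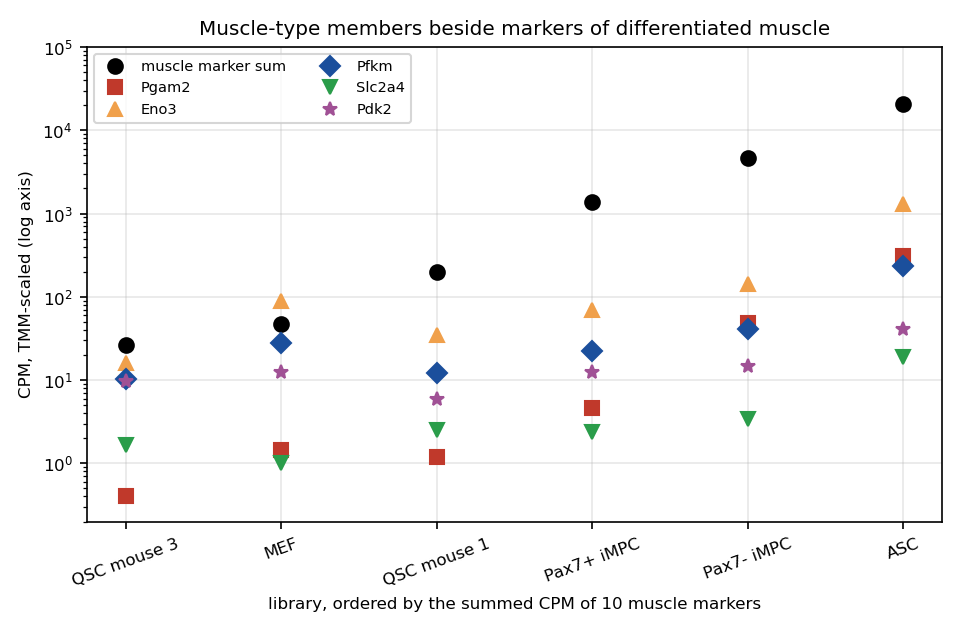
CPM (log axis) of Pgam2, Eno3, Pfkm, Slc2a4 and Pdk2 beside the summed CPM of 10 markers of differentiated muscle (black circles) in each library, ordered by that sum. All 5 genes are highest in ASC, where the sum is 20940, and Eno3 and Pfkm in MEFs lie above their levels in mouse 1 of QSC although the sum in MEFs is 47.5. Pdk2 is a widespread kinase. Hk1, Aldoa, Gapdh, Pkm, Pdk4 and Pdha1, not shown, were also highest in ASC, so that trait is not particular to muscle paralogs.

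Pyruvate kinase and lactate dehydrogenase end the pathway. Pkm had 40973 and 28818 reads in QSC of mice 1 and 3, 78368 in ASC, 70819 in Pax7-positive iMPCs, 93285 in Pax7-negative iMPCs and 67910 in MEFs, and Ldha, the form that favours lactate, had 22829 and 18174 reads in QSC of mice 1 and 3, 48869 in ASC, 46534 in Pax7-positive iMPCs, 81627 in Pax7-negative iMPCs and 38541 in MEFs. For both genes the QSC libraries were lowest (1954 and 1303 CPM and 1088 and 822 CPM), and the highest libraries were ASC for Pkm (3376) and Pax7-negative iMPCs for Ldha (2757). Neither passed the test: the largest differences were 1.05 ± 0.75 for Pkm in ASC and 1.53 ± 0.70 for Ldha in Pax7-negative iMPCs (edgeR quasi-likelihood, adjusted p = 0.334 and 0.138). Counts per gene cannot separate the adult and the proliferation-linked splice forms of Pkm. Ldhb, the heart form that favours pyruvate, had 807 and 749 reads in QSC of mice 1 and 3, 1062 in ASC, 13258 in Pax7-positive iMPCs, 13283 in Pax7-negative iMPCs and 2062 in MEFs. Both iMPC fractions were high and alike, at 427 and 449 CPM, and every other library lay at 33.9 to 77.1. The rise was 3.56 ± 0.58 in Pax7-positive and 3.63 ± 0.58 in Pax7-negative iMPCs (edgeR quasi-likelihood, adjusted p = 0.000489 and 0.000407), against 0.34 ± 0.59 in ASC and 1.09 ± 0.58 in MEFs, which did not pass. Per length Ldhb reached 25.7% of the pair in Pax7-positive iMPCs (95% counting interval 25.4 to 26.1) and 16.5% in Pax7-negative iMPCs (16.3 to 16.8). It held 2.57% in ASC, 4.12% and 4.77% in QSC and 6.11% in MEFs.

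Lactate crosses the membrane through monocarboxylate transporters. Slc16a1 (MCT1), which carries lactate both ways, had 10037 and 6694 reads in QSC of mice 1 and 3, 4419 in ASC, 4767 in Pax7-positive iMPCs, 4493 in Pax7-negative iMPCs and 1429 in MEFs. QSC were highest at 479 and 303 CPM, ASC and both iMPC fractions lay at 152 to 190.4, and MEFs were lowest at 53.4. In MEFs it fell by 2.87 ± 0.71 (edgeR quasi-likelihood, adjusted p = 0.00939; 0.0622 with library size scaling). Slc16a3 (MCT4), the lactate exporter of glycolytic cells, had 3647 and 2738 reads in QSC of mice 1 and 3, 809 in ASC, 1943 in Pax7-positive iMPCs, 10751 in Pax7-negative iMPCs and 1037 in MEFs. Pax7-negative iMPCs stood at 363 CPM, above QSC at 174 and 124 CPM, and the other 3 libraries lay at 34.9 to 62.5. It fell by 2.09 ± 0.67 in ASC and 1.94 ± 0.66 in MEFs (edgeR quasi-likelihood, adjusted p = 0.0342 and 0.0475; 0.117 and 0.155 with library size scaling). In Pax7-negative iMPCs its difference of 1.29 ± 0.58 did not pass (adjusted p = 0.13). Per length Slc16a3 made up 82.5% of the pair there (95% counting interval 82.0 to 83.0) and 58.8% in MEFs, while Slc16a1 led in the other 4 libraries. By reads Slc16a1 led in MEFs too.

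The pyruvate dehydrogenase kinases showed the most frequent calls of any family. Pdk1, a target of the hypoxia-inducible factor, had 82 and 100 reads in QSC of mice 1 and 3, 1025 in ASC, 793 in Pax7-positive iMPCs, 3996 in Pax7-negative iMPCs and 348 in MEFs. QSC were lowest at 3.91 and 4.52 CPM and Pax7-negative iMPCs highest at 135, with ASC at 44.2, Pax7-positive iMPCs at 25.5 and MEFs at 13.0. Pdk1 rose by 5.00 ± 0.63 in Pax7-negative iMPCs, 3.39 ± 0.61 in ASC and 2.60 ± 0.60 in Pax7-positive iMPCs (edgeR quasi-likelihood, adjusted p = 4.91e-05, 0.000829 and 0.00591). Pdk3, the kinase least inhibited by pyruvate, had 308 and 199 reads in QSC of mice 1 and 3, 1208 in ASC, 1659 in Pax7-positive iMPCs, 1354 in Pax7-negative iMPCs and 1957 in MEFs. Both QSC libraries (14.7 and 9.0 CPM) lay below all 4 others, which were at 45.7 to 73.1. It was the member called in all 4 comparisons, higher by 2.14 ± 0.60 in ASC, 2.17 ± 0.60 and 1.95 ± 0.60 in the Pax7-positive and Pax7-negative fractions and 2.63 ± 0.61 in MEFs (edgeR quasi-likelihood, adjusted p = 0.0188, 0.0171, 0.0321 and 0.00573). Pdk2, a widespread kinase, had 123 and 216 reads in QSC of mice 1 and 3, 955 in ASC, 389 in Pax7-positive iMPCs, 435 in Pax7-negative iMPCs and 336 in MEFs. ASC was high at 41.1 CPM and the other 3 libraries lay just above mouse 3 of QSC (9.77). Its rise in ASC was 2.40 ± 0.70 (edgeR quasi-likelihood, adjusted p = 0.0217). Pdk4, the kinase induced by fasting and fat use, had 2121 and 2773 reads in QSC of mice 1 and 3, 3106 in ASC, 372 in Pax7-positive iMPCs, 288 in Pax7-negative iMPCs and 494 in MEFs. ASC (134 CPM) lay with QSC (101 and 125 CPM), and both iMPC fractions and MEFs were low at 9.73 to 18.5. Pdk4 fell by 3.24 ± 0.71 in Pax7-positive iMPCs, 3.54 ± 0.72 in Pax7-negative iMPCs and 2.62 ± 0.69 in MEFs (edgeR quasi-likelihood, adjusted p = 0.00422, 0.00269 and 0.0126; in MEFs 0.0758 with library size scaling).

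The leading kinase per length differed between groups. Pdk4 held 72.4% and 77.6% of the 4 kinases in QSC and 38.9% in ASC (95% counting interval 37.8 to 40.1). Pdk3 led in Pax7-positive iMPCs with 57.1% (55.3 to 58.8) and in MEFs with 68.4% (66.8 to 70.0). Pdk1 led in Pax7-negative iMPCs with 63.1% (61.8 to 64.3). The enzyme these kinases act on varied less. Pdha1, its catalytic alpha subunit, had 2482 and 2678 reads in QSC of mice 1 and 3, 6547 in ASC, 8687 in Pax7-positive iMPCs, 6356 in Pax7-negative iMPCs and 5302 in MEFs. It was lowest in QSC (118 and 121 CPM) and at most 282 CPM elsewhere, and passed no test. Pdhb, the beta subunit, lay between 77.8 CPM in MEFs and 217 in Pax7-positive iMPCs, with QSC at 168 and 130.4 CPM inside that range and no call.

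The sorted iMPC fractions share the stated growth protocol and are 1 library each, so their ratios compare libraries and carry counting intervals only, with no test. By a rule of at least 2-fold with at least 5 CPM in the higher library, 11 members were higher in the Pax7-negative fraction and 0 in the Pax7-positive fraction. Over all genes the shares were 8.66% and 3.25%. The median log2 difference was -0.59 over the members and -0.05 over all genes (positive minus negative). Pgam2 was higher in the negative fraction by 10.6-fold (8.94 to 12.7), the interval covering counting error. The membrane transporters Slc2a3, Slc16a3 and Slc2a1 were higher by 6.16-fold (5.64 to 6.73), 5.81-fold (5.53 to 6.10) and 3.88-fold (3.66 to 4.12). Pdk1 stood 5.29-fold (4.90 to 5.72) higher, Pfkfb3 4.12-fold (3.63 to 4.69) and Pfkl 3.59-fold (3.46 to 3.72). Tpi1, Eno2, Pfkfb4 and Eno3 were 2.40-fold, 2.34-fold, 2.21-fold and 2.07-fold higher. Aldoc, under 5 CPM in both, had 121 reads against 3. Of the genes that did not pass, Ldhb, Slc16a1 and Hk1 had close to the same CPM in both fractions, and Pdhb, Pdha1 and Pdk4 were somewhat higher in the positive one. The fractions differed in other cells' markers too: 10 markers of differentiated muscle summed to 1367 CPM in the positive and 4620 in the negative fraction, 8 fibroblast markers to 2203 and 8548, and 9 proliferation genes to 2347 and 855. The part of these in the ratios was not tested.

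**Figure D5:**
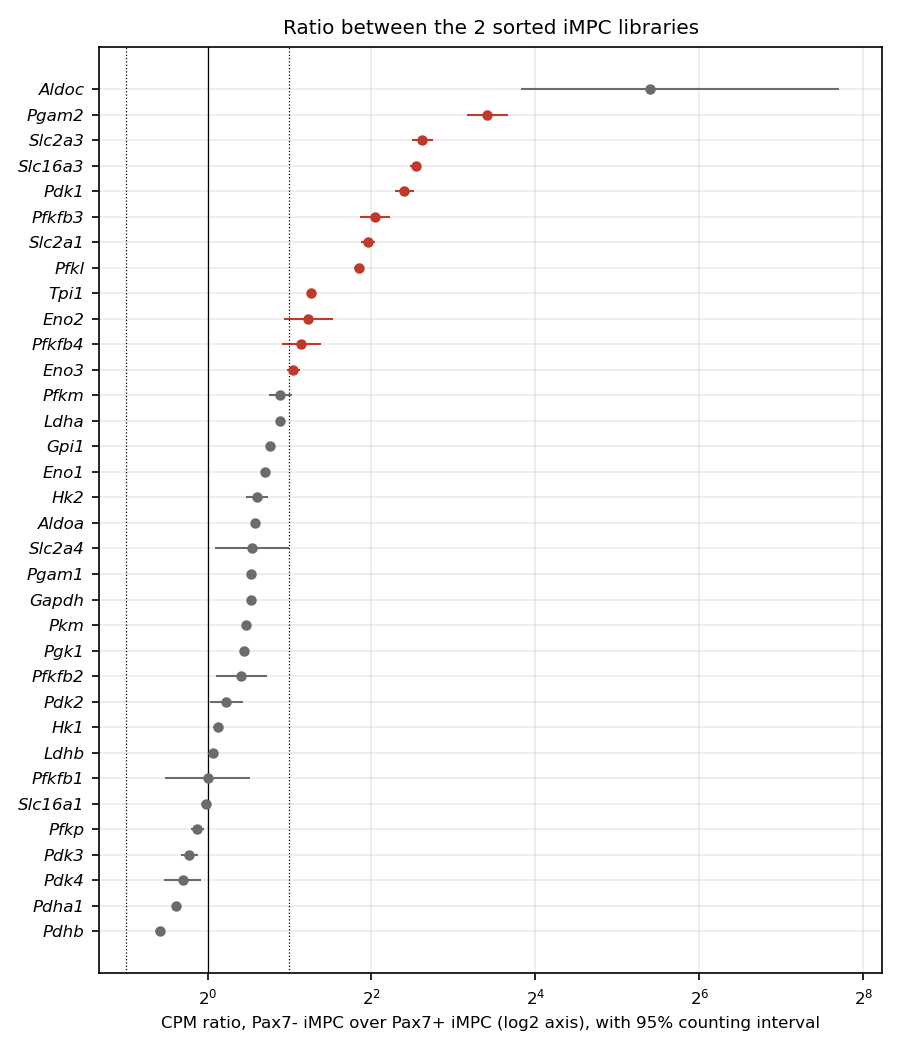
Ratio of CPM in the Pax7-negative over the Pax7-positive iMPC library for each of the 34 members (log2 axis, lines are 95% counting intervals, dotted lines mark 2-fold). Red points are the 11 genes past the rule of size, from Eno3 at 2.07 to Pgam2 at 10.6; Aldoc lies farthest right but under 5 CPM.

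Set against MEFs, the negative fraction again carried more of these transcripts. By the same rule 12 members were higher in Pax7-negative iMPCs than in MEFs and 0 lower, where 8.53% and 7.37% of all genes were. Pgam2 stood 33.5-fold (24.4 to 47.4) higher, Slc2a3 12.0-fold (10.6 to 13.7), Pdk1 10.4-fold (9.30 to 11.6), Slc16a3 9.37-fold (8.79 to 10.0) and Ldhb 5.82-fold (5.56 to 6.10). The other 7 were Pfkfb3, Pfkl, Slc16a1, Tpi1, Gpi1, Aldoa and Pgk1, at 2.31-fold to 3.13-fold. Pax7-positive iMPCs had 3 members higher than MEFs and 2 lower (8.47% and 11.8% of all genes). Ldhb was 5.54-fold (5.28 to 5.80) higher, Slc16a1 2.87-fold (2.71 to 3.05) and Pdhb 2.79-fold (2.66 to 2.93), whereas Slc2a1 was 2.93-fold (2.75 to 3.12) and Eno2 2.09-fold (1.69 to 2.60) lower. Ldhb and Slc16a1 were thus above MEFs by this rule in both fractions.

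The genes around the pathway were read from 7 lists with 76 entries, 73 of them with a row, and no list was tested as a set. Over all genes tested 11.8% rose and 8.24% fell in ASC, 11.3% and 9.31% in Pax7-positive iMPCs, 12.1% and 6.57% in Pax7-negative iMPCs and 11.3% and 8.03% in MEFs. The lists are short, so a count of 1 or 2 genes in them is not set apart from these shares. Of 14 glycogen handling genes tested, 7 rose and 1 fell in ASC, and 2 rose and 2 fell in Pax7-positive iMPCs. In Pax7-negative iMPCs 5 rose and 1 fell, and in MEFs 4 rose and 2 fell. The list median was 1.68, -0.15, 0.68 and 0.48 in that order. Gys1, the muscle glycogen synthase, was at 8.06 and 16.3 CPM in QSC, 175 in ASC, 68.1 and 154 in the Pax7-positive and Pax7-negative fractions and 62.2 in MEFs. Its QSC levels lay below all others, and it rose by 3.84 ± 0.62, 2.48 ± 0.61, 3.66 ± 0.62 and 2.35 ± 0.61 (edgeR quasi-likelihood, adjusted p = 0.000352, 0.00833, 0.00063 and 0.0117). Pgm2, listed here as a phosphoglucomutase, also rose in all 4, from 12.4 and 5.74 CPM in QSC to 60.1 to 179.8 CPM. Its rise was largest in Pax7-negative iMPCs (4.31 ± 0.64, edgeR adjusted p = 0.000198). Pgm2 and Pgm1 are the symbols of the deposited table, and current mouse nomenclature uses these names the other way round. Pgm1, the other phosphoglucomutase listed, named after its values were seen, went the other way, from 197 and 127 CPM in QSC to 18.2 in ASC, 32.9 and 35.6 in the Pax7-positive and Pax7-negative fractions and 42.3 in MEFs. It fell in the first 3 (edgeR adjusted p = 0.00506, 0.0244 and 0.0324; 0.0493, 0.113 and 0.136 with library size scaling) and did not pass in MEFs (0.051; 0.0104 by DESeq2). Pygm, the muscle glycogen phosphorylase, was at 83.2 and 45.6 CPM in QSC, 336 in ASC and 0.486 in MEFs, a rise of 2.38 ± 0.59 and a log2 difference of -7.04 ± 0.93 (edgeR adjusted p = 0.00883 and 7.02e-05). Pygb, its brain form, rose by 3.82 ± 0.60 in MEFs, 2.12 ± 0.58 in Pax7-negative iMPCs and 2.01 ± 0.59 in ASC (edgeR adjusted p = 0.000307, 0.0178 and 0.022).

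The other routes of glucose carbon had fewer calls. In the pentose phosphate list of 9 genes, 2 rose and 1 fell in ASC, 2 rose in each iMPC fraction and 3 in MEFs, beside 11.3% to 12.1% of all genes higher and 6.57% to 9.31% lower. G6pdx, the entry enzyme, rose in all 4 from 25.4 and 13.0 CPM in QSC, most in Pax7-positive iMPCs (129 CPM, 2.74 ± 0.61; edgeR adjusted p = 0.00431) and least in MEFs (76.5 CPM, 1.99 ± 0.60; 0.0275). The row 9630033F20Rik, the older symbol of Tigar, which lowers fructose 2,6-bisphosphate, rose from 1.72 and 0.814 CPM to between 9.52 and 15.7 and passed in all 4 comparisons, in Pax7-negative iMPCs not when only these libraries and QSC were fitted (edgeR adjusted p = 0.0543). Tkt, transketolase, fell by 2.04 ± 0.68 in ASC (edgeR adjusted p = 0.0414; 0.154 with library size scaling), and Rpe rose by 2.04 ± 0.59 in MEFs (0.0212). Of 8 genes of pyruvate entry to mitochondria, 1 rose in ASC and 2 rose and 1 fell in Pax7-positive iMPCs. There Dlat, a subunit of the pyruvate dehydrogenase complex, rose by 1.84 ± 0.58 and Mpc1, one part of the mitochondrial pyruvate carrier pair, fell by 2.07 ± 0.68 (edgeR adjusted p = 0.0335 and 0.0399; for Mpc1 0.154 with library size scaling). Pdpr, a regulator of pyruvate dehydrogenase phosphatase, rose by 2.64 ± 0.77 in ASC and 2.44 ± 0.77 in Pax7-positive iMPCs (edgeR adjusted p = 0.0222 and 0.0327; the latter 0.0548 with a filter of 5 CPM). Of 7 shuttle genes Got1, the cytosolic aspartate aminotransferase, alone passed, higher by 2.50 ± 0.58 and 1.73 ± 0.58 in the Pax7-positive and Pax7-negative fractions (edgeR adjusted p = 0.00594 and 0.0457). The call in Pax7-negative iMPCs was lost under 4 of the alternatives, DESeq2 among them (0.056). Among 5 gluconeogenesis genes Fbp1, fructose bisphosphatase, had 0 reads in QSC and 160 in Pax7-negative iMPCs, at least 77.6-fold higher against a floor of 3 counts over both QSC libraries. Of 10 remaining glycolysis genes, Minpp1 rose in all 4 comparisons, from 31.7 and 17.8 CPM to between 94.7 and 124. Slc16a7 (MCT2), a further monocarboxylate transporter, had 2 reads in QSC and 108 in MEFs, a ratio of 87.0 (95% counting interval 23.5 to 727).

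Regulators of glycolytic genes changed in both directions. Of 14 listed, 1 rose and 6 fell in ASC (2 and 2 with library size scaling), 2 and 3 changed in Pax7-positive iMPCs, 4 and 3 in Pax7-negative iMPCs and 1 and 3 in MEFs, beside 11.3% to 12.1% of all genes higher and 6.57% to 9.31% lower in these comparisons. Egln3, a prolyl hydroxylase induced through the hypoxia-inducible factor, was at 5.24 and 2.17 CPM in QSC and 4.30 in MEFs but 77.6 in ASC, 22.2 in Pax7-positive and 104 in Pax7-negative iMPCs. It rose by 4.39 ± 0.67, 2.58 ± 0.65 and 4.81 ± 0.68 in these 3 (edgeR quasi-likelihood, adjusted p = 0.000215, 0.0101 and 0.000134). Myc, an activator of glycolytic genes and itself an early response gene, was at 4093 and 1754 CPM in QSC and 81.2 to 155 CPM elsewhere. It fell by 4.24 ± 0.92 to 5.17 ± 0.97 in the 4 comparisons, with QSC far above all others, as for the dissociation stress genes, whose part in this was not tested. Mlxipl (ChREBP), a glucose-sensing factor, had 2903 reads in both QSC libraries and 3, 6, 4 and 1 in ASC, Pax7-positive iMPCs, Pax7-negative iMPCs and MEFs. Txnip, a glucose-induced inhibitor of glucose uptake, was at 51.9 and 167 CPM in QSC and fell by 4.52 ± 0.88 to 4.78 CPM in ASC (edgeR quasi-likelihood, adjusted p = 0.00166; 0.053 with library size scaling).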

How the data were processed

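RNA-seq reads per gene were analysed for 6 mouse libraries: 2 of quiescent satellite cells and 1 each of activated satellite cells, Pax7-positive iMPCs, Pax7-negative iMPCs and embryonic fibroblasts. Per the labels' protocols, DNase-treated RNA was poly(A)-selected and made into directional libraries. The tools named in the submitters' processing notes are Picard 1.100, edgeR, HTSeq 0.6.0 and STAR 2.3.0, and the build is mm9, per the submitters' processing notes. Not given in the sources used here are their order, the annotation, the strand setting and the handling of reads with several matches, so overlapping genes and near-identical copies are uncertain. The authors deposited raw counts per gene and a table of RPKM values with symbols. The RPKM values equal counts per kilobase and per 1e+06 summed counts (largest relative deviation 9.51e-15), without other scaling. Groups follow the sample labels.

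Tests on the counts used edgeR 4.0.16, limma 3.58.1 and R 4.3.3. After edgeR's expression filter by group and TMM scaling, a single model held all 6 libraries and gave each group its own coefficient. It had 1 residual degree of freedom, with 16.3 prior degrees of freedom and a biological coefficient of variation of 0.476. Each contrast with QSC was tested across 17116 genes with the quasi-likelihood F test (two-sided), and p-values were Benjamini-Hochberg adjusted, with a threshold of 0.05. A standard error is the log2 fold change over the root of F. Lone libraries were compared with each other by size only (2-fold, 5 CPM, log2 CPM with a prior count of 2) with exact 95% counting intervals, as were shares within families (Clopper-Pearson bounds of the read share, carried to the per-length scale). Intervals and floors (3 counts) cover counting error only. The scripts were tested on simulated data, with a spread set below that of these libraries and a shared mean profile. That test does not give the error rate of the calls made here. Alternatives were library size scaling, the size factors and test of DESeq2 1.42.0, other filters, other sets of libraries and other thresholds.

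The members and gene lists were chosen with earlier results of these data known. Members were all accounted for, with full statistics for those called or leading a family; up to 4 called genes per list were named, by smallest p. The marker lists were differentiated muscle, satellite cell, fibroblast, endothelial, immune, erythroid, adipocyte, neural and Schwann, proliferation and dissociation stress (86 entries, 84 with a row). Promoter sequences are RefSeq's, in GRCm38.p6, matched by symbol. That build differs from the authors', so no position of the counts is given. A planned comparison of protein sequences was not made.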

Additional observations from a re-analysis of the deposited data

How the results depend on the processing

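Library size scaling without TMM, the change with the widest effect, left 29 of 41 calls past the threshold, took 12 falls below it and reversed none. It gave 2 members lower in ASC, 1 in Pax7-positive iMPCs, and 4 higher and 0 lower in MEFs, and medians of 1.15 (ASC), 1.16 and 1.78 (positive and negative iMPC fractions) and 1.30 (MEFs). Over all genes it moved the split of higher and lower calls from 2021 and 1411 to 1868 and 501 in ASC, from 1931 and 1593 to 1998 and 531 and from 2065 and 1124 to 2141 and 329 in the positive and negative iMPC fractions, and from 1938 and 1374 to 1836 and 461 in MEFs. Of the 41 calls, 40 held by DESeq2, 38 with its size factors, 38 with a filter of 5 CPM (1 gene not tested), 39 with only the groups compared and 41 without a filter. Pax7-negative iMPCs had 2 members lower by DESeq2 and with the 5 CPM filter. Without either QSC mouse no test is possible. The medians then ranged from 0.40 to 0.95 in ASC, from 0.066 to 0.60 in Pax7-positive iMPCs, from 0.96 to 1.51 in Pax7-negative iMPCs and from 0.38 to 0.76 in MEFs, the lower value of each without mouse 3. At 4-fold, 5 members were lower in Pax7-positive than Pax7-negative iMPCs, 1 was higher and 0 lower in Pax7-positive iMPCs than in MEFs, and 5 were higher in Pax7-negative iMPCs than in MEFs. Pax7-positive iMPCs had 5 members above MEFs with a minimum of 1 CPM and with library size scaling. By raw counts instead of RPKM, the leading paralog was the same in 55 of 60 families and libraries; it turned for enolase in ASC, hexokinase in mouse 3 of QSC, PFKFB in ASC and mouse 3 of QSC, and the monocarboxylate transporters in MEFs. No paired analysis was possible because the groups share fewer than 2 replicate numbers. Depth limits members with few reads in at least 1 library, such as Aldoc, Pgam2 (25 and 9 reads in QSC), Pfkfb1, Slc2a4 and Eno2. The single libraries, and 2 QSC mice that differ in other ways, limit all members.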

Other observations

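Per length, the lower part of the pathway stood among the most abundant transcripts of the cultured libraries. Ranked by RPKM over all 38924 genes, Pkm was at rank 153 and 240 in QSC, 22 in ASC, 29 and 18 in the Pax7-positive and Pax7-negative iMPC libraries and 23 in MEFs. Ldha was at rank 186 and 246 in QSC and between 10, in Pax7-negative iMPCs, and 33, in MEFs, elsewhere. Aldoa, at 86 and 147 in QSC, reached rank 16 in ASC and 75 in MEFs. Tpi1 moved from rank 1101 and 1004 in QSC to 43 in Pax7-negative iMPCs. A rank within a library does not change with the scaling factor. It depends on which other genes are high there, in QSC the dissociation stress genes among them.

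The QSC mice differed from each other by at least 2-fold in 7 of the 34 members, 5 of them higher in mouse 1 (Aldoc, Pgam1, Pgam2, Eno3, Pfkfb1) and 2 in mouse 3 (Hk2, Pfkfb2). These genes were singled out after their values were seen, and Aldoc rests on 4 and 2 reads. The share of all genes that differ so between the mice is not given, so the count of 7 is not read as a trait of the members. The markers of differentiated muscle were also higher in mouse 1, at 199 CPM against 26.1, and the part of this in Pgam2 and Eno3 was not tested. With 1 library per mouse this has no test.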
